A study of Mus musculus with 3 samples.

Results

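The genes examined were Gata1, Gata2 and Gata3, which encode the GATA factors of blood cells, and Zfpm1, which encodes FOG1, the cofactor that GATA1 binds through its amino-terminal zinc finger. They were chosen by name, with earlier results of these data known, as 4 of the 32587 genes over which chromatin fragments were counted. Each was read over its gene body plus 2 kb upstream and at its promoters, and Gata1 and Gata2 also at known enhancers within 100 kb. For Gata3 and Zfpm1 other elements came only from a scan for the most open windows. GATA factors are zinc finger proteins that bind GATA motifs in promoters and enhancers. GATA2 maintains hematopoietic stem cells and is replaced by GATA1 at shared sites as cells turn to the erythroid and megakaryocytic lineages, whereas GATA3 directs T cell fates and is also expressed in long-term stem cells. In these lineages GATA1 acts largely together with FOG1 and represses Gata2.

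The cells were long-term hematopoietic stem cells (LT-HSCs) of wild-type female C57BL/6 mice (the J substrain) aged 24 months, sorted as Lin-Sca-1+c-Kit+ cells that were CD150+, CD48- and CD34- after staining with fluorescent and oligonucleotide-tagged antibodies. They were profiled with DOGMA-seq, an assay that gives accessible chromatin (ATAC), RNA and counts of antibody tags for each cell. All 3 libraries were made from the same pool, so every group of cells is 1 sample, spread between replicates could not be measured, and groups were compared without a test. All intervals are exact 95% intervals that cover counting error only. Those of fragment counts treat fragments as independent and do not widen for the extra variance between cells given below, so they can be too narrow.

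Of 4369 barcodes called as cells, 3724 had antibody counts and 3629 held at least 10 antibody tags and were used. The lowest count of fragments in peak regions among the cells used was 3001, just above the minimum by which the study filtered its cells. These 3629 cells had a median of 10287 nuclear fragments each (range 3853 to 45069) and a median of 29 antibody tags. A set of 264 cells (7.27%) carried an excess of overlapping fragments, which can mark barcodes with more than 1 cell, and results that moved without them are given with both values. The call used the same expected count for all cells, so deep cells are called more readily. Promoters of stem cell markers had a median rank at the 65.4th percentile of coding genes, with 6 of 10 above the median, against the 40.6th for erythroid, 42.9th for megakaryocyte, 33.1st for myeloid, 32.5th for T cell, 34.7th for B cell and 24.97th for mast cell markers. RNA was not analysed here, so every level below is a level of chromatin accessibility, given as fragments per kb of region per 1000000 nuclear fragments.

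The open elements that carried the results are shown as 300 bases centred on the densest 100 bases of transposase insertions, read from the GRCm38 reference in the direction of transcription of the gene. Capitals mark GATAA on either strand, so that TTATC in capitals is the same motif read from the other strand. The Gata1 elements are the upstream enhancer that drives the gene in blood cells and the palindromic GATA site just upstream of its principal start, which is needed in eosinophils. The Gata2 elements are its distal enhancer at -77 kb and its intronic enhancer at +9.5 kb, which is needed to form stem cells in the embryo. For Gata3 and Zfpm1 the most open element of each locus is shown.
Gata1 -3.5 kb enhancer, chrX:7971290-7971589, minus strand: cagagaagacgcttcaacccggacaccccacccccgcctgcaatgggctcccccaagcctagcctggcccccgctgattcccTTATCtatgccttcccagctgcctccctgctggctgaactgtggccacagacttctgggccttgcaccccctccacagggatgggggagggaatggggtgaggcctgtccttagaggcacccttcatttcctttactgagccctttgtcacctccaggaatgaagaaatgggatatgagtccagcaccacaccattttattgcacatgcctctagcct
Gata1 palindromic GATA site, chrX:7968310-7968609, minus strand: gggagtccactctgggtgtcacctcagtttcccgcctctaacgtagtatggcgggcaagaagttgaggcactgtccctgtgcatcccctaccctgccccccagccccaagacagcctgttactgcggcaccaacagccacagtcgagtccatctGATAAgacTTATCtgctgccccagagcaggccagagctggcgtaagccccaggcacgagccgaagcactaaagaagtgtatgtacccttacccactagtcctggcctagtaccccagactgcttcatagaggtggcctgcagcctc
Gata2 -77 kb enhancer, chr6:88116561-88116860, plus strand: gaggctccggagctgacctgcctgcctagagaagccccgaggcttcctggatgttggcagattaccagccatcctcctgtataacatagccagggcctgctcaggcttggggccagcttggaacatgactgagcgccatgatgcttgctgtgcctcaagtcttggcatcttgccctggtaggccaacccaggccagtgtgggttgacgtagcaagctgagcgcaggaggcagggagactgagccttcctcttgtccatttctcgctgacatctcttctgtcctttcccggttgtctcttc
Gata2 +9.5 kb enhancer, chr6:88203111-88203410, plus strand: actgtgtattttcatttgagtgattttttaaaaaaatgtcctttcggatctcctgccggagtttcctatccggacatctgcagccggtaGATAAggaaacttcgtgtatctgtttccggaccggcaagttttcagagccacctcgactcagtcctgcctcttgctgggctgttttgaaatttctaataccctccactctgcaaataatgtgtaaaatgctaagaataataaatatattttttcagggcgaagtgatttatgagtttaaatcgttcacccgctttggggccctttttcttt
Gata3 element 1.1 kb upstream, chr2:9879531-9879830, minus strand: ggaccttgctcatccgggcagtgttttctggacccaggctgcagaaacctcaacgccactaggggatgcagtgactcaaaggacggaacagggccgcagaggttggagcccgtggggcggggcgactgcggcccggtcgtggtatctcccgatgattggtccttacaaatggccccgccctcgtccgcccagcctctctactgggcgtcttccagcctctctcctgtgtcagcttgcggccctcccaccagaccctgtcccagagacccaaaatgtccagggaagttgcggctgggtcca
Zfpm1 element 0.2 kb upstream, chr8:122281771-122282070, plus strand: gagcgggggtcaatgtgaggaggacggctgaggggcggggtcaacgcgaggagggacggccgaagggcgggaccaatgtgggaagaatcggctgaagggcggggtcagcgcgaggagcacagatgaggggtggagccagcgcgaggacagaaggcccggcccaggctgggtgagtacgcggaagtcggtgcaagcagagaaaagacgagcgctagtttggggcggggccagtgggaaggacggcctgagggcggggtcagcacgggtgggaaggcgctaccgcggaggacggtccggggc
The Gata2 +9.5 kb element held an E-box followed by a GATA motif, the composite of CATCTG, 8 bases of any kind and AGATAA, as CATCTGcagccggtAGATAA at chr6:88203185-88203204 on the plus strand. That composite, searched on both strands, was present in 4 of the 27235 most open 1 kb windows of the genome, read as 300 bases each, and in 3 of 32851 RefSeq promoters (GRCm38.p6). GATAA was present in 17.6% of those open windows and in 25.4% of the promoters. It was absent from the 300 bases around all 5 RefSeq promoters of the 4 genes, and the -77 kb element held none in the bases shown and 1 in its whole window of 500 bp on each side.

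Gata2 was the most open of the 4 genes for its length. Gata2 (chr6:88193891-88207032, plus strand, GRCm38) held 5021 fragments, a level of 8.61 (8.38 to 8.85), which placed it at the 97.3rd percentile of coding genes, whose median level was 0.822. Zfpm1 (chr8:122282141-122337251, plus strand) followed at 5.56 (5.46 to 5.66; 12229 fragments, 93.5th percentile), then Gata3 (chr2:9857078-9890034, minus strand) at 3.72 (3.62 to 3.83; 5009 fragments, 87.7th percentile). The Gata3 region also contains the genes 4930412O13Rik, 9230102O04Rik and Gm13256. Fragments over them count for Gata3 in every value of its gene region. Gata1 (chrX:7959260-7978071, minus strand) was the least open at 1.29 (1.21 to 1.37; 1032 fragments, 62.3rd percentile), and at 1.196 without the cells with excess overlaps. None of these 4 intervals overlapped. Gata1 lay near GATA genes that act outside blood, of which Gata6 had a level of 1.23 (1.17 to 1.29), Gata4 of 1.11 (1.07 to 1.15) and Gata5 of 0.950 (0.862 to 1.04), and the intervals of Gata1 and Gata6 overlapped. Gata1 lies on chromosome X and the genes it is ranked with here lie on autosomes. Levels were not adjusted for the active copies of chromosome X in female cells, so they do not compare the genes copy for copy. Zfpm2, the other FOG gene, stood lowest at 0.0781 (0.0740 to 0.0824) over a far longer gene.

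The share of cells with at least 1 fragment followed level and length together. It was 94.2% (93.4 to 94.98) for Zfpm1, 70.4% (68.9 to 71.9) for Gata2, 70.3% (68.8 to 71.8) for Gata3 and 21.5% (20.2 to 22.9) for Gata1. At this depth a cell without a fragment is not shown to be closed there. Cells with a Gata1 fragment were deeper, with a median of 11379 nuclear fragments against 10045 in the others, and 16.8% of them carried excess overlaps against 4.67%, so depth entered every comparison below.

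At the promoter, taken as 1 kb on each side of each annotated coding start, Zfpm1 ranked at the 99.7th percentile of coding genes, Gata2 at the 86.3rd, Gata3 at the 76.9th and Gata1 at the 45.4th. The GATA partners, a list of 15 genes that includes Tal1, Lmo2, Ldb1 and Runx1, had a median promoter percentile of 84.6, and 13 of them stood above the median. Lists of genes that the factors control had lower medians: the median percentile was 36.4 for 16 erythroid targets, 48.7 for 20 megakaryocyte targets, 49.6 for 13 GATA2 stem and mast cell targets, and 35.8 for 14 GATA3 lymphoid targets. Single targets varied widely, from the 14.2nd to the 97.8th percentile for the GATA2 list and from the 16.5th to the 96.9th for the megakaryocyte list. Tal1, Lyl1 and Klf1 stand both among the partners and in a target list.

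**Figure D1:**
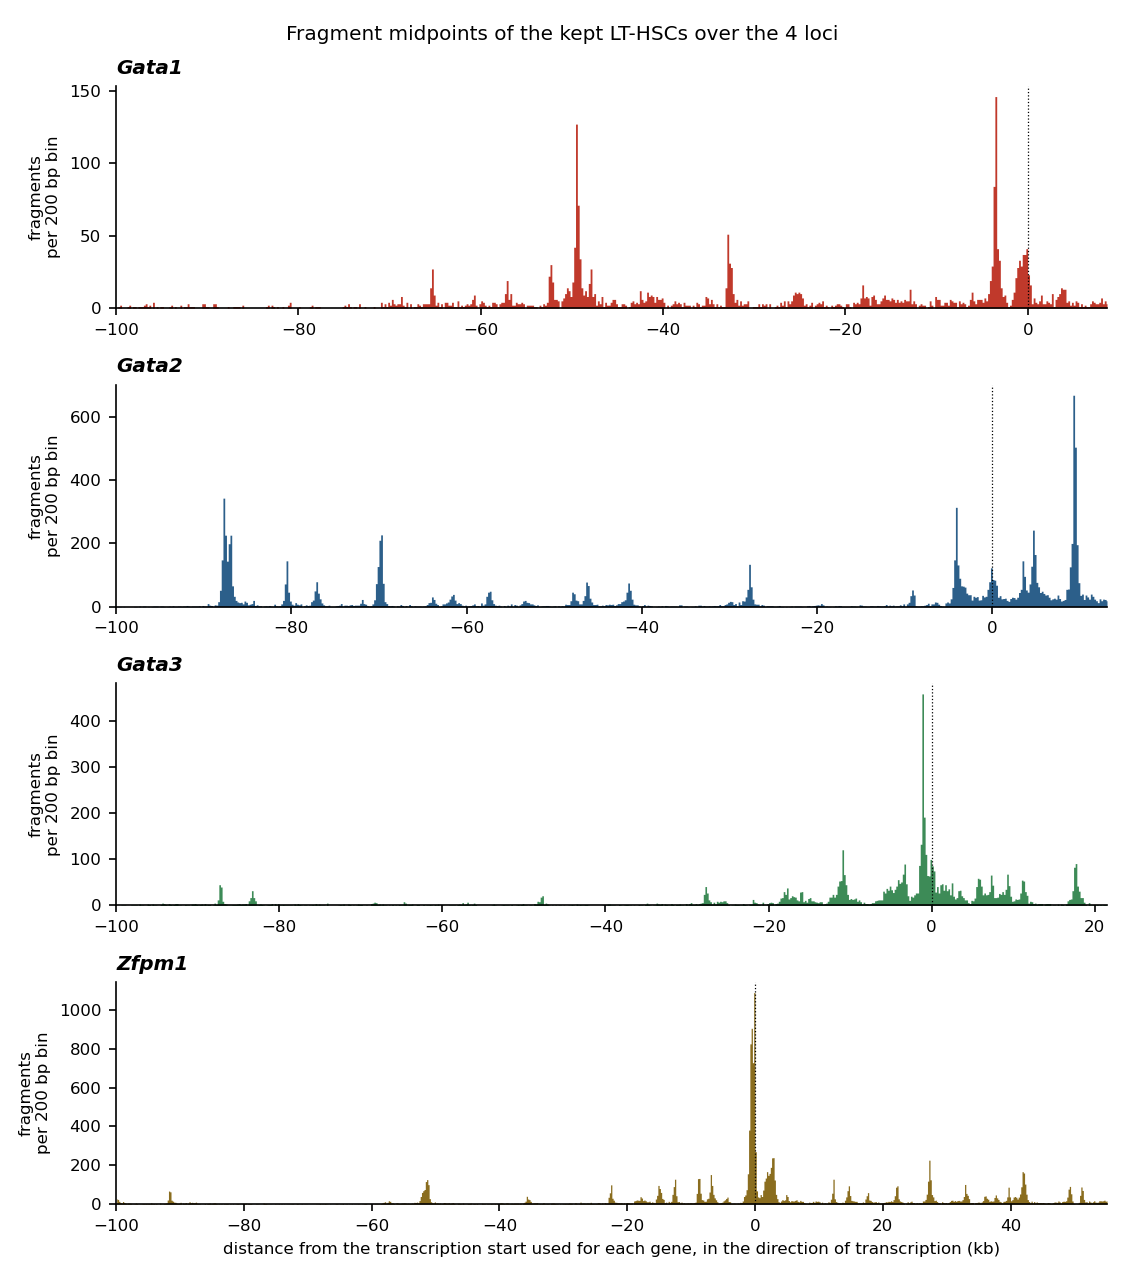
Midpoints of fragments from 3629 LT-HSCs in bins of 200 bp (y axis, a separate scale in each panel) against distance in kb from the start used for each gene, from 100 kb upstream to the gene end. Gata2 and Zfpm1 show many separate peaks, Gata3 has its highest peak just upstream of its start, and Gata1 has peaks near -3.5 kb and at the start, with a peak near -49 kb that lies 1151 bp from the start of Glod5.

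Within Gata2 the intronic enhancer outweighed both promoters. Over windows of 500 bp on each side, the +9.5 kb enhancer held 1774 fragments (1692 to 1859) in 36.9% of cells. The downstream (1G) promoter held 747 (694 to 803) and the upstream (1S) promoter, used in blood cells, 532 (488 to 579). Of the upstream autoregulatory sites named for their GATA occupancy, -3.9 kb held 851 fragments, -2.8 kb 289 and -1.8 kb 200. The windows at -3.9 and -2.8 kb overlap an exon of the noncoding gene Gm38708, and those at -1.8 and -77 kb are intergenic. The -2.8 and -1.8 kb windows share an edge, so fragments across it count in both. The -77 kb enhancer held 237 (208 to 269) in 5.43% of cells, just under the level that marked the most open 1% of 1 kb windows of the genome (246 fragment midpoints per window, against 216 there). Short fragments, under the length of DNA that a nucleosome wraps, made up 53.4% at +9.5 kb, 44.3% at -77 kb, 24.8% at the 1S promoter and 14.5% and 11% at -2.8 and -1.8 kb.

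Gata1 was most open at its -3.5 kb enhancer, in an intron of the longer transcript, with 364 fragments (328 to 403) in 8.49% of cells. The palindromic GATA site window at -0.7 kb held 202 and the principal promoter 158, and these windows overlap. The +3.5 kb site held 60, the -25 kb site 50 and the upstream promoter 28. The enhancer window thus held more fragments than the promoter window, with intervals that did not overlap.

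Gata3 and Zfpm1 were most open beside their starts. For Gata3 the strongest element lay 1.1 kb upstream of the principal start in an intron of the longer transcript, with 1068 fragments in 24.4% of cells, against 503 over the principal promoter and 295 over the upstream promoter. Zfpm1 held 3857 fragments in 63.5% of cells at -0.2 kb, and 63.9% of these were short. That element was annotated as an intron of Gm20388, a predicted gene that spans Zfpm1.

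A scan from 100 kb upstream to the gene end found 24 elements in the most open 1% of 1 kb windows, 2 for Gata1, 8 for Gata2, 3 for Gata3 and 11 for Zfpm1. They held between 264 and 3857 fragments each, and 5 of the 24 held GATAA in their central 300 bases, against 17.6% of all such windows. Some lay nearer to other genes. At -87.7 kb from Gata2 an element with 988 fragments in 21.8% of cells was 4590 bp from the start of Rpn1, and the elements at -80.6 and -69.8 kb were also nearest to Rpn1. For Gata3, the element at -10.8 kb was 119 bp from the start of 9230102O04Rik, and that at -3.4 kb was 685 bp from the start of 4930412O13Rik.

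Across cells, Gata1 fragments were more concentrated than a Poisson draw at each cell's depth. A single cell held at most 6, and 190 cells held at least 2 where 129.6 were expected, a ratio of 1.47 (1.27 to 1.69). The 3526 genes with a like number of fragments had a median ratio of 1.27, and Gata1 lay at their 94.9th percentile. For genes open in most cells this ratio has little room, and it was 0.950 (0.8999 to 1.002) for Gata2, 0.975 (0.924 to 1.03) for Gata3 and 0.985 (0.949 to 1.02) for Zfpm1, where genes of like level had medians of 0.980, 0.981 and 0.964 and the 3 genes lay at the 4.28th, 36.9th and 95th percentiles. The variance over the Poisson variance was above 1 for all 4 genes, at 1.28 for Gata1, 1.20 for Gata2, 1.14 for Gata3 and 1.18 for Zfpm1. Genes of like level had medians of 1.17, 1.19, 1.19 and 1.2498, and the percentiles among them were 94.8, 60.6, 18.2 and 8.33.

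**Figure D2:**
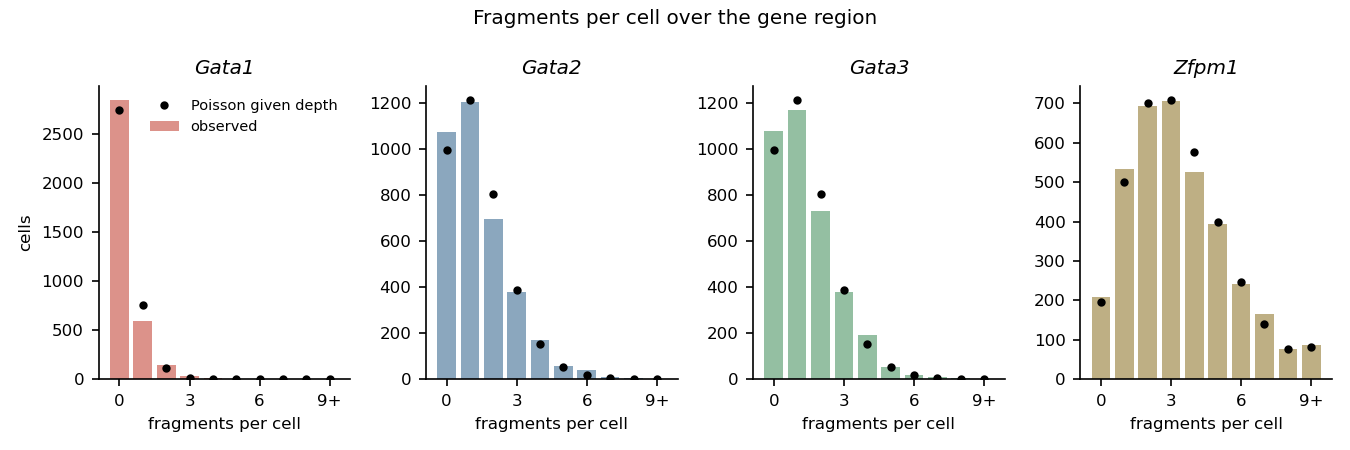
Number of cells (y axis) by fragments per cell over each gene region (x axis, 9 or more pooled), as bars for the observed cells and points for a Poisson draw given each cell's depth. For Gata1 the bars at 2 or more fragments sum to 190 cells and the points to 129.6.

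Whether the 4 genes opened in the same cells was read from the number of cells with a fragment at both genes, over the number expected if each opened independently given depth. All 6 pairs stood near 1. Gata1 and Gata2 were open together in 588 cells where 572.1 were expected, a ratio of 1.03 (0.946 to 1.11). Gata1 and Zfpm1, the genes of a factor and its cofactor, were open together in 744 cells where 744.5 were expected (0.999, 0.929 to 1.07). For Gata1 and Gata3 the ratio was 1.02 (0.935 to 1.102), for Gata2 and Gata3 0.996 (0.951 to 1.04), for Gata2 and Zfpm1 0.997 (0.957 to 1.04), and for Gata3 and Zfpm1 0.9995 (0.960 to 1.04). Each lay within the central 95% of the ratios of its genes with the 20229 other genes, which for Gata1 ran from 0.917 to 1.19 around a median of 1.03. The 6 intervals reach from 0.929 to 1.11, and gene regions with many fragments in most cells, such as Zfpm1, can show little above 1 in any case.

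Among genes more than 1 Mb away or on other chromosomes, the 5 with the highest lower bound of this ratio to Gata1 were Gm12811 (1.46, 1.18 to 1.80), Gm48727 (1.42, 1.16 to 1.71), Spp1 (1.40, 1.16 to 1.67), Tmc2 (1.45, 1.15 to 1.81) and Gm13402 (1.41, 1.14 to 1.74). Spp1 encodes osteopontin, a secreted bone and marrow matrix protein. The 5 were picked as the extremes of 20229 genes, each with 229 to 368 open cells. For Gata2, led by Tacr1, for Gata3, led by Tmed3, and for Zfpm1, led by Med12l, even the highest lower bounds were below 1, at 0.981, 0.993 and 0.968.

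As whole lists, erythroid and megakaryocyte targets stood near the background of all genes. Of 10 erythroid targets with enough open cells, 7 had a ratio to Gata1 above 1, with a median of 1.01, against 74.1% of all genes above 1 and a median of 1.03. Epor, the erythropoietin receptor gene, was highest at 1.24 (1.07 to 1.43), with 185 cells open at both and 149.1 expected. Of 18 megakaryocyte targets 15 were above 1, with a median of 1.05, and Treml1, which encodes a platelet granule receptor, was highest at 1.252 (1.01 to 1.53). Of 15 GATA partners 12 were above 1, with a median of 1.01 and Gfi1b highest at 1.11. Also relative to Gata1, 8 of 10 GATA2 targets were above 1 (median 1.03, highest Cpa3, a mast cell protease gene, at 1.099). So were 7 of 9 GATA3 targets (median 1.05, highest Cd4 at 1.254). Relative to Gata2, 5 of 11 GATA2 targets were above 1 (median 0.998), against 34.9% of all genes. Relative to Gata3, 3 of 9 GATA3 targets were (median 0.995), against 41.0% of all genes.

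A single element of Gata2 stood apart from the whole gene. The Gata2 -77 kb enhancer and the Gata1 region were open in the same cell 77 times where 46.2 were expected, a ratio of 1.67 (1.32 to 2.08). None of 15091 1 kb windows of the genome open in a like number of cells had a ratio to Gata1 as high, and their central 95% ran from 0.780 to 1.31. For the Gata1 -3.5 kb enhancer alone the ratio to -77 kb was 1.74 (1.19 to 2.45), from 32 cells with both. Within CD274-low cells these ratios were 1.64 (1.15 to 2.28) for the region and 2.01 (1.23 to 3.10) for the enhancer, and within CD274-high cells 1.58 (0.842 to 2.70) and 1.09 (0.225 to 3.19), the last from 3 cells. The other Gata2 windows were at 1.26 (0.936 to 1.65) for -1.8 kb, 1.08 (0.842 to 1.37) for -2.8 kb, 1.03 (0.883 to 1.20) for -3.9 kb and 0.989 (0.881 to 1.11) for +9.5 kb. These 5 windows were examined after values by antibody had been seen. In strata of depth and of the share of fragments in peak regions the -77 kb ratio was 1.41, and without the cells with excess overlaps it was 1.57. Among the 8 elements of the Gata2 locus in the most open 1% of windows, which do not include -77 kb, none of 28 pairs had an interval above 1.

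The antibody panel held 12 surface proteins, and cells were split for each into a high and a low group as near to 25% of cells as tied counts allowed. The study proposed CD61 (integrin beta 3) and CD274 (PD-L1) as high, and CD357 (GITR) and CD27 as low, on platelet-biased stem cells. Log2 ratios compare scaled fragments in high over low cells, and a ratio beyond 0.2 in size, the fold the study used, counts as past the fold. The study applied that fold together with an adjusted p-value and a minimum detection in a cell population, and here it stands alone.

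Gata2, Gata3 and Zfpm1 were past the fold in 0 of 36 comparisons, with log2 ratios from -0.15 to 0.16. Over all genes with at least 200 fragments the share past the fold in either direction was 14.5% with CD61, 17.4% with CD274, 9.8% with CD27, 13.5% with MERTK, 8.45% with CD201, 9.07% with CD106 and 7.77% with P2X7R. With CD357 it was 4.97% on the higher and 6.0% on the lower side. It was 23.6% with CD68, 27.2% with CD183, 47.8% with CD206 and 51.0% with CD163, whose high groups were small. These shares include many genes with far fewer fragments than Gata2, Gata3 and Zfpm1, whose ratios vary more by counting alone. They are not shares of genes of like level, and no unusual stability is read from the count of 0. For 3 of the 36 comparisons the interval left out 0: Gata3 with CD61 (0.16, 0.03 to 0.29), Gata3 with MERTK (0.11, 0.00 to 0.22) and Gata2 with MERTK (0.13, 0.02 to 0.24). The share of all genes whose interval left out 0 was 8.94% with CD61, 14.2% with CD274, 8.21% with CD357, 6.95% with CD27, 7.05% with MERTK and 7.63% with CD201, and 6.44%, 7.76%, 6.43%, 5.85%, 5.61% and 5.49% with CD106, P2X7R, CD68, CD183, CD206 and CD163. Gata1 was past the fold with 4 of 12 antibodies, CD274, MERTK, CD201 and CD163.

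**Figure D3:**
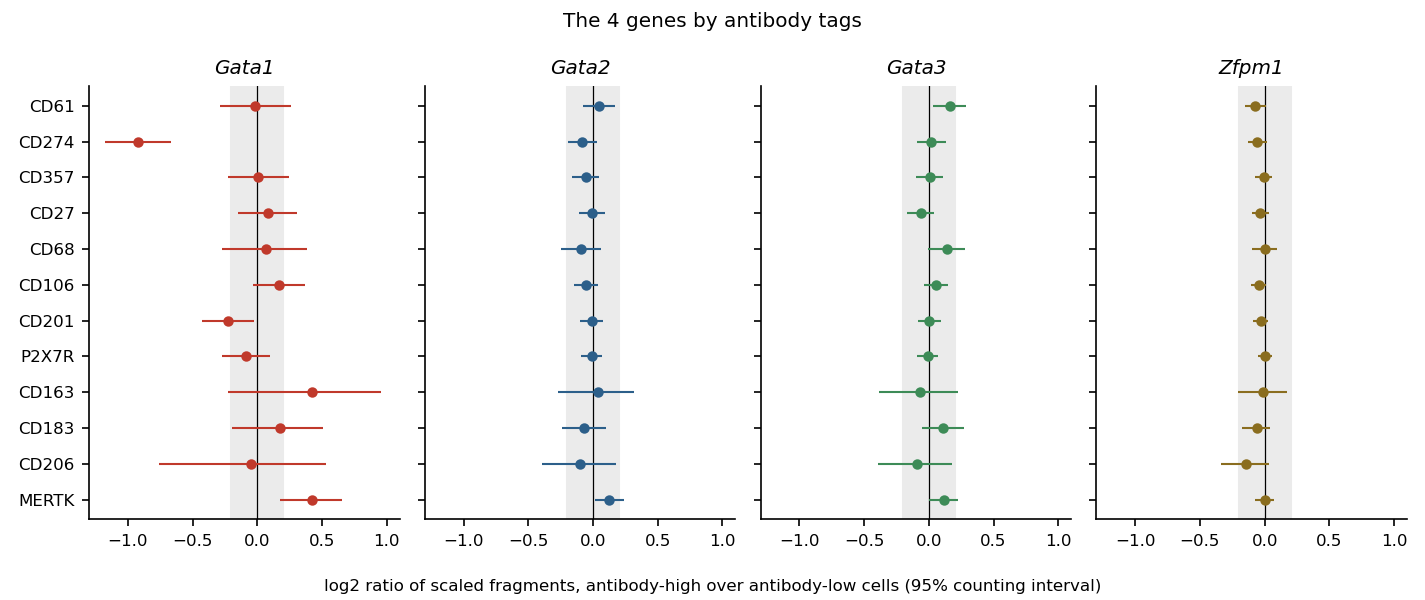
Log2 ratio of scaled fragments in antibody-high over antibody-low cells (x axis) for each antibody (rows) and gene (panels), with 95% counting intervals and the range within 0.2 shaded. The Gata1 point for CD274 lies at -0.92, and all points of Gata2, Gata3 and Zfpm1 lie within the shaded range.

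Gata1 was less open in cells with many CD274 tags. The 937 CD274-high cells, with at least 27 tags, held 204 Gata1 fragments, a level of 0.948 (0.823 to 1.09), and the 877 CD274-low cells, with at most 12 tags, held 349, a level of 1.79 (1.61 to 1.99). The log2 ratio was -0.92 (-1.18 to -0.67), the second lowest of 18178 genes with at least 200 fragments, after 9830144P21Rik at -1.08. Of those genes, 9.24% were past the fold on the lower side and 8.14% on the higher side. Gata1 was chosen with earlier results of these data known, so its rank is a description and not a test. A Gata1 fragment was found in 18.1% of CD274-high cells and in 28.1% of CD274-low cells.

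For the other genes the interval held 0 over the same groups. Gata2 was at 8.52 in CD274-high and 9.02 in CD274-low cells (log2 ratio -0.08, -0.19 to 0.03), Gata3 at 3.82 and 3.77 (0.02, -0.09 to 0.13), and Zfpm1 at 5.50 and 5.72 (-0.06, -0.13 to 0.02). The groups were alike in depth, with medians of 10296 and 10472 nuclear fragments, and differed in the share of cells with excess overlaps (13.0% against 6.39%), in the other tags per cell (12.5 against 8.61) and in the median share of fragments in peak regions (68.5% against 66.3%). That share was 66.4% in cells with a Gata1 fragment and 67.8% in the others, and its part in the CD274 difference was not tested. Without the cells with excess overlaps the Gata1 ratio was -0.93. Split by the sum of the other 11 antibodies, Gata1 had a log2 ratio of 0.20 (-0.05 to 0.45). In the 363 cells with at least 50 antibody tags the CD274 ratio was -0.0576 (-0.96 to 0.86), from 23 and 22 fragments.

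Over 6 bands of CD274 tags the Gata1 level was lower in each band than in the one before. It was 1.91 (1.65 to 2.20) in 447 cells with 0 to 9 tags, 1.64 (1.42 to 1.88) at 10 to 13, 1.22 (1.07 to 1.39) at 14 to 19, 1.16 (1.01 to 1.32) at 20 to 27, 0.984 (0.815 to 1.18) at 28 to 37, and 0.896 (0.702 to 1.13) in 338 cells with 38 to 110 tags. Neighbouring bands overlapped in their intervals except between 10 to 13 and 14 to 19 tags. The Gata2 level stayed between 8.38 and 9.29 over the same bands. Taking a separate Gata1 rate in each band left its concentration in single cells at 1.42 (1.23 to 1.64).

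**Figure D4:**
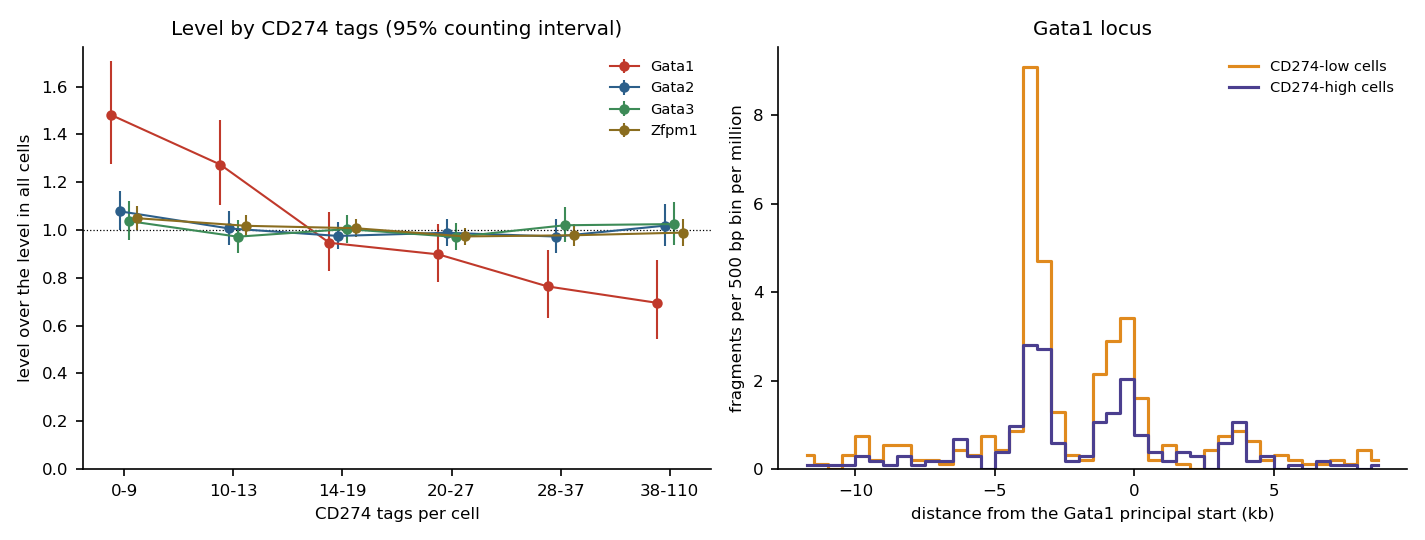
Left, level of each gene over its level in all 3629 cells (y axis) in 6 bands of CD274 tags per cell (x axis), with 95% counting intervals. Right, fragments per 500 bp bin per 1000000 nuclear fragments (y axis) against distance from the Gata1 principal start in kb, in CD274-low and CD274-high cells. The Gata1 level is lower in each band than in the band before (1.91 in the lowest and 0.896 in the highest band), and its peak at the enhancer is lower in CD274-high cells.

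The difference was present at the enhancer and promoter of Gata1. The -3.5 kb enhancer held 67 fragments in CD274-high and 138 in CD274-low cells (log2 ratio -1.18, -1.63 to -0.76), the palindromic GATA site window 40 and 64 (-0.82, -1.43 to -0.23), and the principal promoter window 30 and 53 (-0.96, -1.66 to -0.29). The +3.5 kb site held 19 and 18. The gene region without the enhancer window was still at -0.77. The nearest coding genes on either side had intervals that held 0. Hdac6, which encodes a cytoplasmic deacetylase and starts 20 kb downstream, held 1113 and 1003 fragments (0.01, -0.12 to 0.13) and Glod5 186 and 186 (-0.14, -0.45 to 0.16). The rest of chromosome X was at -0.04 (-0.05 to -0.04).

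The elements of Gata2 had unlike ratios over the same cells, while the interval of the whole gene held 0. The -77 kb enhancer held 46 fragments in CD274-high and 91 in CD274-low cells (-1.12, -1.67 to -0.60), the -2.8 kb site 54 and 87 (-0.83, -1.35 to -0.33), and the -1.8 kb site 46 and 66 (-0.66, -1.24 to -0.10). The -2.8 and -1.8 kb windows share an edge, so a fragment across it counts in both and their ratios are not independent. The densest 100 bases found for the -1.8 kb window lay across that edge. Those for the -2.8 kb window lay at its other edge, towards -3.9 kb. By contrast the +9.5 kb enhancer held 487 and 427 (0.05, -0.15 to 0.24), the -3.9 kb site 220 and 220 (-0.14, -0.42 to 0.13), and the 1S promoter 136 and 116 (0.08, -0.28 to 0.46). The 1G promoter held 192 and 205 (-0.24, -0.53 to 0.05), past the fold with an interval that held 0. Among 34701 1 kb windows of the genome with at least 100 fragments in these groups, 14.3% were past the fold on the lower and 26.0% on the higher side, 2.89% had an interval wholly below and 7.98% wholly above 0, and 0.0144% had a ratio lower than that of the -77 kb enhancer. At the 11 most open elements of the Zfpm1 locus the ratios ran from -0.36 to 0.49, and at those of Gata3 from -0.13 to 0.08.

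**Figure D5:**
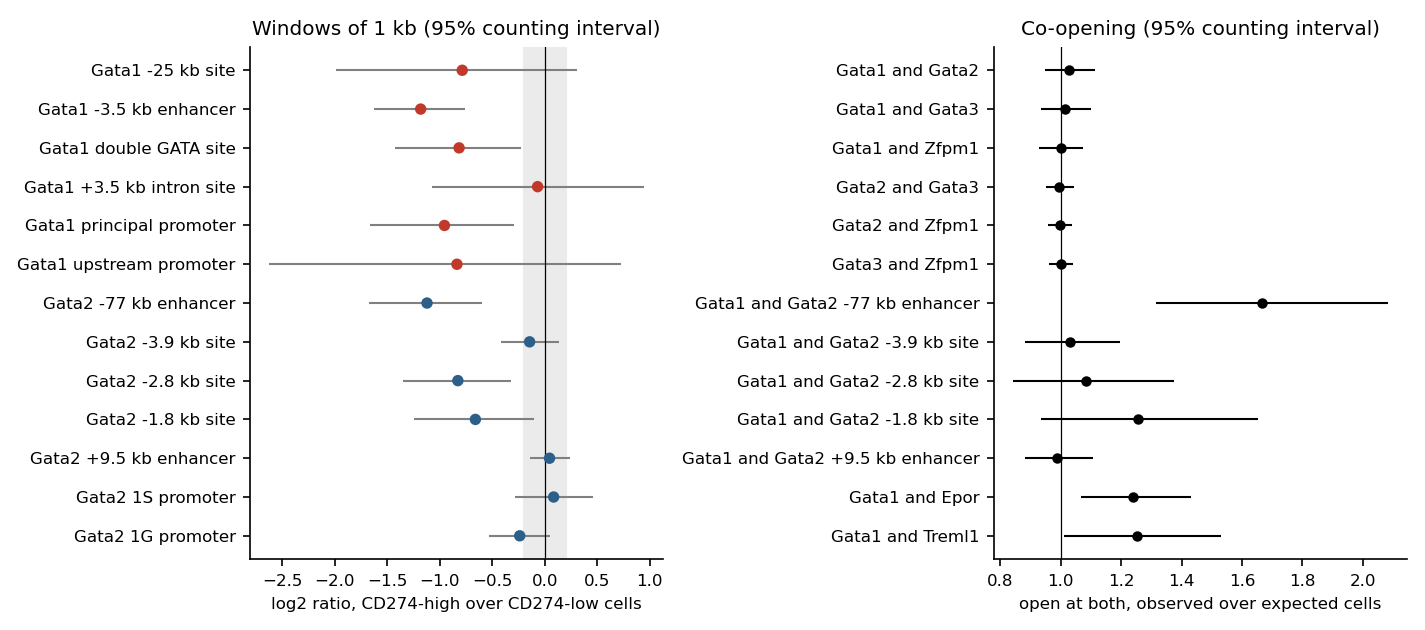
Left, log2 ratio of fragments in CD274-high over CD274-low cells (x axis) for named windows of Gata1 (red) and Gata2 (blue), with 95% counting intervals and the range within 0.2 shaded. Right, number of cells open at both members of a pair over the number expected given depth (x axis), with 95% counting intervals. The Gata2 -77 kb enhancer stands apart from the +9.5 kb enhancer in both panels, at -1.12 and 1.67.

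Among target genes other than Gata1 itself, Epor was the one furthest from 0 with CD274, with 171 fragments in CD274-high and 250 in CD274-low cells (-0.69, -0.98 to -0.41). The counts that follow stand beside 17.4% of all 18178 genes past the fold in either direction and 9.24% on the lower side, and nothing particular to a list is read from them. Car2, a carbonic anhydrase gene, was the only other of 9 erythroid targets tested past the fold (-0.22, -0.38 to -0.06), none was past it on the higher side, and their median was -0.07. Of 10 GATA2 stem and mast cell targets, Gata1 itself and Kit, the stem cell factor receptor gene (-0.22, -0.33 to -0.11), were past the fold on the lower side. Of 16 megakaryocyte targets, Treml1 (-0.31, -0.70 to 0.08) and Gp9 (-0.21, -0.47 to 0.05), which encodes a subunit of the platelet von Willebrand factor receptor, were past it on the lower side and Thbs1 (0.25, 0.00 to 0.50), a thrombospondin gene, on the higher side. Of 15 GATA partners, Gfi1b, which encodes a transcriptional repressor needed for erythroid and megakaryocytic development, was past the fold (-0.26, -0.52 to -0.01), and none of 7 GATA3 lymphoid targets was. Car2, Kit, Gp9 and Thbs1 are named after their values were seen.

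Markers of other cell types were read over the same groups. Summed over the gene regions of 8 myeloid markers, CD274-high cells held 1103 and CD274-low cells 856 fragments (0.22, 0.09 to 0.35), and of the 2 with enough fragments Csf1r, the macrophage growth factor receptor gene, was at 0.39 (0.20 to 0.57) and Csf3r, the granulocyte growth factor receptor gene, at 0.30 (-0.04 to 0.65). The other 6 myeloid markers held 346 and 325 (-0.05, -0.28 to 0.17). The 7 erythroid markers summed to 1361 and 1371 fragments (-0.15, -0.26 to -0.05), and without Epor to 1190 and 1121 (-0.06, -0.18 to 0.06). The 10 stem cell markers summed to 13931 and 12263 (0.04, 0.00 to 0.07), and the megakaryocyte, mast, T and B cell markers had intervals that held 0. No marker was at 0 in either group. The part of these differences in the Gata1 values was not tested.

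With the antibody to MERTK, a receptor by which phagocytes take up dying cells, the Gata1 difference ran the other way. The 564 cells with at least 2 tags held 200 Gata1 fragments, a level of 1.56, and the 2168 cells with none held 551, a level of 1.17. The log2 ratio was 0.42 (0.18 to 0.66), at the 99.5th percentile of 19628 genes, of which 6.98% were past the fold on the higher side. It was 0.11 over the promoters only and 0.68 (0.28 to 1.06) at the -3.5 kb enhancer. The CD274 difference was present with and without MERTK tags: in cells without one, the level was 0.792 (0.639 to 0.970) in CD274-high and 1.68 (1.46 to 1.93) in CD274-low cells, and in cells with one, 1.14 (0.935 to 1.37) and 1.97 (1.66 to 2.31).

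The other antibodies past the fold for Gata1 rested on smaller differences or few cells. CD201 (EPCR), a stem cell marker, gave -0.22 (-0.43 to -0.03), where 4.58% of genes were past the fold on the lower side, and 0.0527 on tag counts adjusted for the other tags of a cell. CD163 gave 0.42 (-0.23 to 0.95) from 71 cells with a tag and 26 fragments, where 26.7% of genes were past the fold on the higher side, and -0.24 in cells with at least 50 tags. CD61, CD357 and CD27 gave -0.02 (-0.29 to 0.26), 0.01 (-0.23 to 0.24) and 0.08 (-0.15 to 0.31). In cells with at least 50 tags CD357 gave -0.47 and CD27 0.62, both past the fold.

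Cells were gated on all 4 markers of the study at their median tag counts, a split set here and not the gates of the study. The platelet-biased side, with CD61 and CD274 above and CD357 and CD27 at or below the median, held 342 cells. The multi-lineage side, with the opposite, held 61. Gata1 held 92 and 20 fragments there (log2 ratio -0.39, -1.07 to 0.42). Of 7290 genes with at least 200 fragments in the gated cells, 20.6% were past the fold on the lower side. Gata1 was under that minimum, so it lies outside this background. Its ratio ran over 3 alternatives from -0.45 to -0.78, the latter without the cells with excess overlaps. Gata2 was at 0.09 (-0.26 to 0.49), Gata3 at 0.10 (-0.25 to 0.48) and Zfpm1 at 0.02 (-0.21 to 0.26). All 4 intervals held 0 at this depth.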

How the data were processed

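ATAC fragments, RNA and antibody tags were measured in 3 libraries of 1 pool of LT-HSCs. Per the file headers, the authors made the ATAC and RNA files with Cell Ranger ARC 2.0.2 on its mm10 reference, which calls cells, merges duplicates of a fragment into a single line and corrects its ends for the offset of the transposase. All deposited files hold raw counts, of fragments and RNA UMIs per barcode and of antibody tags, which the authors counted with CITE-seq-Count (version not given in the sources used here). For ATAC, the fragment list held 43705382 lines, 761 fewer than the barcode totals, and the reason is not known.

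Barcodes with antibody counts were kept with at least 10 antibody tags, and doublets were not removed. The kept cells also stood above the minimum of fragments in peak regions that the study set. Excess overlaps were counted as autosomal 1 kb windows with 3 or more overlapping fragments of up to 900 bp. They were called against a Poisson expectation at the mean of the kept cells, not adjusted for the depth of each cell (adjusted value below 0.01). Genes came from GENCODE M21, the same build as the files. Fragments overlapping a gene and 2 kb upstream were summed and scaled by nuclear fragments. Elements were taken at their published distances from the annotated start, with 500 bp on each side, so a window may miss the exact element. For log2 ratios 0.5 was added to both counts, with exact conditional binomial intervals. Genes of the backgrounds and lists needed 200 fragments for a ratio and 200 open cells for co-opening. The ratio of Gata1 was also given under that fragment minimum, as in the gated cells (92 and 20 fragments). Like genes or windows held 80 to 125% of the fragments or open cells. Co-opening was given its expectation from Poisson rates per cell. Alternatives were other tag scales, groupings and minimums, promoters only, other scaling, thinning, other windows, and leaving out the cells with excess overlaps or the deepest cells. Contrast, co-opening and spread were tested on simulated data. The members and lists were chosen with earlier results of these data known, and the single Gata2 windows by CD274, their co-opening with Gata1, the bands of tags and the marker sums without single genes were added after values had been seen. Named partners were the 5 genes with the highest lower bound of co-opening and the listed target furthest from 0. Software was Python 3.11.15, numpy 2.4.6, scipy 1.17.1, pandas 2.3.3 and matplotlib 3.10.9.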

Additional observations from a re-analysis of the deposited data

Results flagged for a closer look

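The 645 called cells without antibody counts entered no comparison, and whether they had failed the cell filters of the study was not tested. They were shallow, with a median of 1805 nuclear fragments, and all 4 genes had signal above the limit that a count of 0 allows (3 fragments). The level was 1.54 (1.102 to 2.08) for Gata1, 9.58 (8.25 to 11.1) for Gata2, 3.26 (2.75 to 3.83) for Gata3 and 6.28 (5.72 to 6.88) for Zfpm1, from 41, 186, 146 and 460 fragments. The order of the genes was that of the kept cells.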

How the results depend on the processing

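Of the alternative values of the levels, co-opening, spread, the 4 study antibodies and the gates, 184 stayed within the counting interval of the reported value and 17 did not. For the remaining values (single elements, their ratios and the other antibodies), 233 stayed, 61 did not and 2, past the fold as reported, turned sign. Most single elements moved per kb with windows of 250 or 1000 bp on each side. Gata1 with MERTK was at 0.72 on residual tag counts, 0.18 with at least 50 tags and 0.11 over promoters only. With at least 50 tags, which left 363 cells, the levels were 0.969 for Gata1, 8.91 for Gata2 and 3.99 for Gata3. The log2 ratios were then -0.0576 for Gata1 with CD274, from 23 and 22 fragments in cells with at least 52 and at most 38 CD274 tags (interval -0.96 to 0.86), 0.16 for Gata2 with CD274, -0.16 for Gata2 with CD61, -0.47 and -0.25 for Gata1 and Gata2 with CD357, and 0.62 and 0.0752 for Gata1 and Zfpm1 with CD27. Without the cells with excess overlaps the Gata1 level was 1.196, and without the deepest 5% of cells it was 1.199. In cells thinned to 6000 fragments the spread was 1.01 for Gata2 and 1.04 for Gata3. Over promoters only, Gata2 with CD61 was at 0.20 and Zfpm1 with CD274 at 0.0567. With residual tag counts, Gata1 with CD27 was at 0.35. Those 2 were Gata1 with CD201 on residual tag counts (0.0527) and with CD163 at 50 tags or more (-0.24). Log2 ratios within the fold changed sign more often, in 31 of 114 alternatives for the study antibodies and gates and in 45 of 211 for the others, so their signs are not stable. Over its other 9 alternatives, 3 of them added after values had been seen, the CD274 ratio of Gata1 ran from -1.08 to -0.72. No paired analysis was possible because each group held 1 sample. Depth limits the single elements, since several rest on fewer than 100 fragments in each group.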
